A study of Homo sapiens with 6 samples.

Results

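The genes described here are 46 human genes of mitotic entry, the spindle, anaphase and cytokinesis, without the kinesins and kinetochore genes. They were taken by symbol from a list drawn up by function, with earlier results of these data known; no threshold on a measured value was applied. All 46 were found among the 63241 genes of the deposited table, on 18 chromosomes. The libraries came from T24, an established human bladder cancer line, and the study's stated question was the role of the deubiquitinating enzyme USP43 in lipid metabolism in bladder cancer. One group of 3 libraries was T24 transfected with siNC, the control small interfering RNA, under a WT genotype label. The other 3 libraries were T24 transfected with siUSP43, under a USP43 knockdown label. All 6 samples carried the same batch label. The labels give neither the time after transfection nor the dose. Nor do they say whether the numbered samples came from separate cultures or whether 1 siUSP43 duplex was used throughout. The p-values therefore reflect the spread among these libraries alone, and that spread may be technical.

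A cell enters mitosis when CDK1 bound to cyclin A or cyclin B becomes active: CDC25 phosphatases remove inhibitory phosphates from CDK1, and the kinases WEE1 and PKMYT1 add them. Aurora and Polo-like kinases then build the spindle, and the anaphase-promoting complex (APC/C), a ubiquitin ligase steered by CDC20 and later by FZR1, destroys securin and the cyclins so that separase can split the chromatids. Many of these genes are transcribed late in the cell cycle by the MuvB complex with B-MYB (MYBL2) and FOXM1, which act through a promoter element called the CHR, while NF-Y binds nearby CCAAT boxes. Their high expression is a common mark of proliferating tumours.

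The knocked-down gene was measured first. USP43 was at 2.36, 2.09 and 2.08 FPKM (fragment counts scaled to exonic length and library size) in siNC 1 to 3 and at 1.02, 0.67 and 0.80 FPKM in siUSP43 1 to 3. All siUSP43 libraries were below all siNC libraries, with a log2 fold change of -1.40 (SE 0.14, edgeR adjusted p = 5.63e-06). Library totals ran from 21430574 to 25577200 counts. All 4 keratins of an epithelial marker list and all 4 mesenchymal markers were at 1 FPKM or more, but of 6 urothelial differentiation markers only PPARG was; the uroplakins and GATA3 were below that level. The summed keratin level was 523 to 540 FPKM in siNC and 465 to 528 FPKM in siUSP43. The mesenchymal sum was 735 to 739 FPKM in siNC and lower, 606 to 633 FPKM, in siUSP43, and the urothelial sum was 2.46 to 2.79 and 2.91 to 3.39 FPKM. The part of these marker levels in the results on mitotic genes was not tested. No blood or immune marker (0 of 7) and no endothelial marker (0 of 4) reached 1 FPKM. The blood and immune list summed to 0.95 to 1.15 FPKM in siNC and 0.41 to 0.56 FPKM in siUSP43, with 2 of its genes at 0 throughout.

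Most of the mitotic genes were higher after transfection with siUSP43, by modest factors. Of the 46 genes, 28 rose (60.9%), against 28.0% of the 11417 genes tested, and 7 fell (15.2%), against 28.1%. Another 11 did not pass. In bulk RNA, more cells at the stage that transcribes a gene and more RNA of it per cell cannot be told apart. A gene passed at an adjusted p (Benjamini-Hochberg over all tested genes, edgeR quasi-likelihood test) under 0.05, and all 46 had the mean of at least 1 FPKM required for testing. Fold changes here are siUSP43 over siNC, and log2 values come from the same fit, with SE as their standard error. The median log2 fold change of the 46 was 0.24, beside -0.01 over all tested genes, and single genes ran from -0.48 (FZR1) to 1.04 (HMMR). Genes that rose did so by 1.12- to 2.05-fold, with a median of 1.37-fold, and genes that fell were at 0.718 to 0.908 of siNC. The 7 genes that rose by at least 1.5-fold (HMMR, MYBL2, WEE1, CDC25A, BIRC5, ESPL1 and ANLN) stood against a background of 6.25% of tested genes, and 0 of the 46 fell by as much (background 7.96%). In 28 genes every siUSP43 library was above every siNC library (background 32.5%), and in 7 every siUSP43 library was below (background 29.6%).

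The counts depended in part on single libraries. Without siNC 1, 2 or 3 in turn, 26, 26 and 24 genes rose and 6, 4 and 3 fell. Without siUSP43 1, 2 or 3 in turn, 23, 28 and 26 rose and 4, 6 and 6 fell. FZR1, UBE2S and CDCA8 fell under every one of the 15 alternative settings run, and 23 of the 28 genes that rose kept that call under all of them. Counting was not stated to use strand, and 14 of the 46 genes overlap another tested gene, so that reads in the shared stretch may have been counted for either gene: CCNA2, BORA, MASTL, CDC25C, PKMYT1, NUSAP1, CKAP5, TACC3, PRC1, ANLN, FZR1, UBE2S, FOXM1 and TOP2A.

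**Figure D1:**
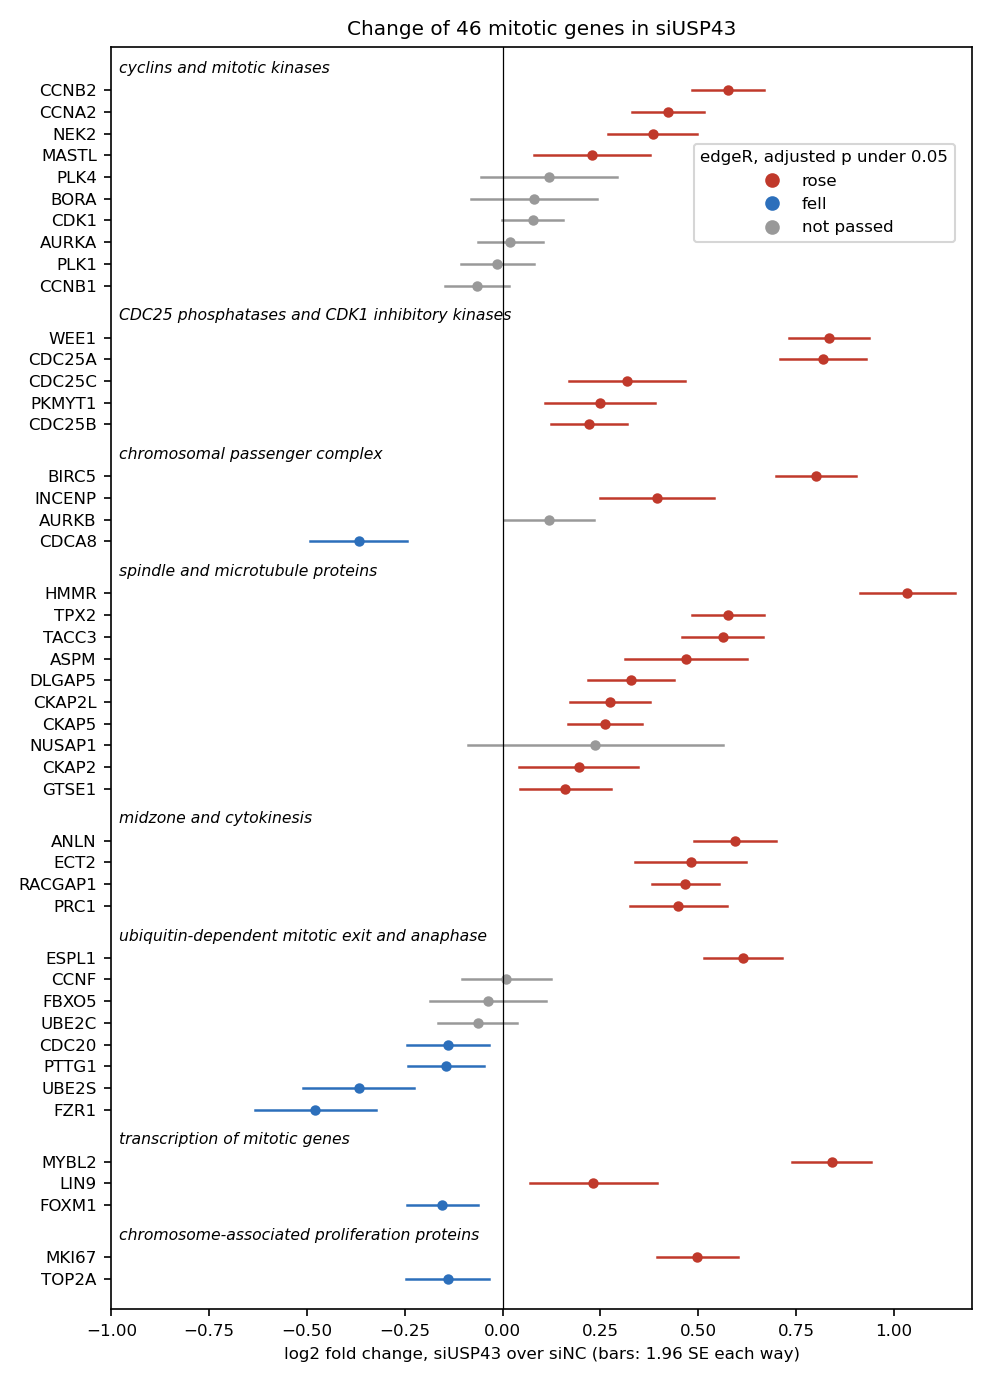
Log2 fold change (siUSP43 over siNC) of the 46 mitotic genes by role; points are edgeR estimates, bars reach 1.96 SE each way, and colour gives the call. Spindle and cytokinesis genes lie to the right of 0, from GTSE1 at 0.16 to HMMR at 1.04, and the genes of ubiquitin-dependent exit other than ESPL1 lie at or left of 0.

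In siNC the mean levels of these genes ran from 1.14 FPKM (NUSAP1) to 100.4 FPKM (UBE2C), with a median of 23.0 FPKM against 5.68 FPKM for a tested gene. The median coefficient of variation between libraries was 3.59% in siNC and 5.56% in siUSP43. Of the 8 genes at 50 FPKM or more in siNC, only TPX2 rose, CDC20, PTTG1 and TOP2A fell, and UBE2C, CCNB1, CDK1 and AURKA did not pass; of all tested genes at that level, 19.4% rose and 37.2% fell. Of the 25 genes between 10 and 50 FPKM, 19 rose and 3 fell, against 30.1% and 32.0% of all tested genes in that range. Of the 13 below 10 FPKM, 8 rose and 1 fell, against 27.9% and 25.9%. Across the 46 genes, which share the same 6 libraries, the log2 fold change and log2 siNC level had a Pearson r of -0.19 and a Spearman rho of -0.24, given as a description.

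Every siUSP43 library showed the shift. Set against the siNC mean of each gene as log2(CPM + 1), with CPM the count scaled to the library's TMM-adjusted total, the median mitotic gene lay at 0.23, 0.24 and 0.33 in siUSP43 1, 2 and 3, while the median over all tested genes lay between -0.01 and 0.00. Of the 46 genes, 36, 37 and 34 were above their siNC mean in those libraries. Their summed level was 1406, 1427 and 1395 FPKM in siNC 1 to 3 and 1653, 1656 and 1670 FPKM in siUSP43 1 to 3. The third siUSP43 library thus had the highest median and the fewest genes above the siNC mean. Libraries also differed by a trend over all genes with exonic size and GC content. For this trend, a gene's deviation was taken from its mean over all 6 libraries and not from its siNC mean. Spearman's rho between that deviation and exonic size was -0.21 in siNC 3, 0.28 in siUSP43 3 and between -0.07 and 0.06 in the other libraries. The rho with GC content was 0.095, 0.19 and 0.36 in siNC 1, 2 and 3 and -0.14, 0.01 and -0.45 in siUSP43 1, 2 and 3. Every siNC library thus had a higher rho with GC content than any siUSP43 library. Over 11228 tested genes with a GC value, the log2 fold change itself had a Spearman rho of -0.24 with GC content. A technical trend and a difference between the groups that goes with GC content therefore cannot be told apart. Removing the trend takes out both, so values with the trend removed are an alternative and not a correction. With that trend removed in each library, 27 of the 46 genes rose and 7 fell, and the median log2 fold change was 0.22.

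**Figure D2:**
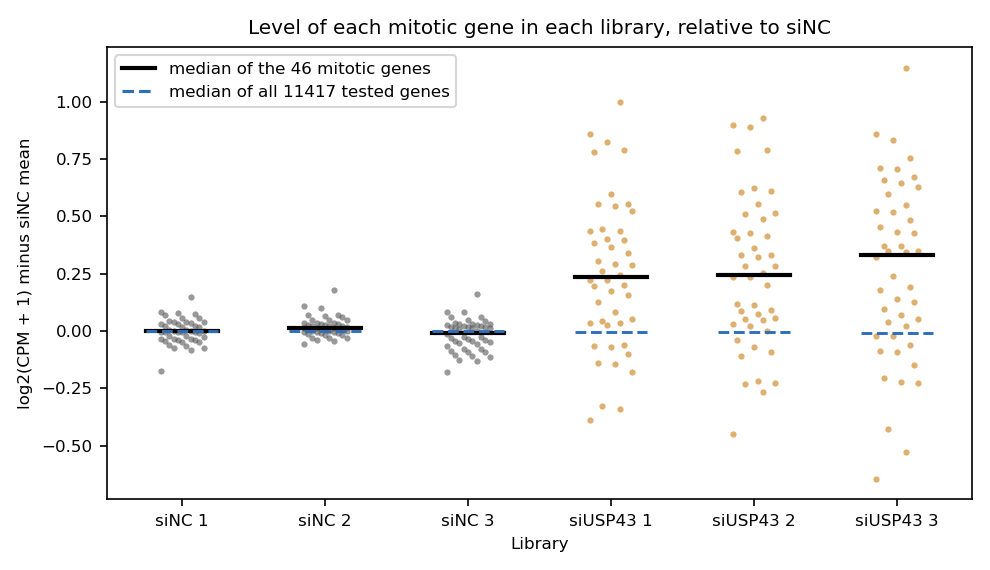
Deviation of each of the 46 mitotic genes from its siNC mean, as log2(CPM + 1), for the 6 libraries; each point is a gene, and the marked medians are those of the mitotic genes and of all tested genes. The 3 siUSP43 medians sit at 0.23 to 0.33 and the 3 siNC medians between -0.01 and 0.01.

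The promoters of these genes often hold the same short elements. RefSeq windows (GRCh38.p14, from 250 bases before to 50 bases after the start, the first window listed for each gene) were on hand for 38 of the 46 genes. None was on hand for WEE1, BIRC5, TPX2, RACGAP1 and PKMYT1, which rose, FOXM1, which fell, or AURKA and UBE2C, which did not pass. The motif counts and medians below therefore leave out WEE1 and BIRC5, with log2 rises of 0.83 and 0.80. The CHR letters searched were TTTGAA and TTCGAA, the CCAAT box CCAAT, and the E2F letters TTTGGCGC, TTTCCCGC and TTTCGCGC, each on both strands. A CHR match was in 24 of 38 windows (63.2%), against 16.6% of 27305 windows of all genes. A CCAAT match was in 27 (71.1%), against 35.7%, and both were in 20 (52.6%), against 6.6%. An E2F match was in 3 (7.9%), against 2.8%. CHR matches were in 14 of 23 genes that rose, 4 of 6 that fell and 6 of 9 that did not pass. The median log2 fold change was 0.25 with a CHR match and 0.23 without. A gene without a match lacks only the letters searched, and an element with other letters would be missed. Matches counted anywhere in the window. In FZR1 and MASTL the nearest one before the start ends 221 and 243 bases from it. Whether a working CHR goes with the change was not tested. Short windows around the CHR follow for 3 genes that rose (CCNB2, HMMR, ANLN), 1 that did not pass (PLK1) and 2 that fell (CDCA8, CDC20), since the same letters occur in all 3 sets. They are written 5′ to 3′ on the gene's own strand, here plus for each, with CHR matches in capitals.
CCNB2: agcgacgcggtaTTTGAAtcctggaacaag
HMMR: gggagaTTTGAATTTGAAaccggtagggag
ANLN: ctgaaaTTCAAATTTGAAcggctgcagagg
PLK1: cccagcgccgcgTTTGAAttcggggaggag
CDCA8: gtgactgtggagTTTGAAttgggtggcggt
CDC20: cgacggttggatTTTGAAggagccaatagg
These lie at chr15:59105105-59105134, chr5:163460598-163460627, chr7:36389830-36389859, chr16:23678848-23678877, chr1:37692481-37692510 and chr1:43358904-43358933. The CHR ends 24, 17, 15, 24, 18 and 60 bases before the RefSeq start. In each of these genes the 120 bases before that start overlap an annotated exon. The windows of HMMR, ANLN, PLK1 and CDCA8 lie within the spans that the deposited data give for those genes. HMMR holds 2 matches in tandem, and ANLN holds 2 back to back on opposite strands. In CDCA8 the CHR shares a base with a CCAAT box read on the other strand (attgg).

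Longer stretches, each ending at the RefSeq start and free of annotated exons, show how the elements sit together in 3 genes that rose. Capitals mark CHR, CCAAT box and E2F matches, and a CCAAT box on the other strand reads ATTGG here.
ESPL1: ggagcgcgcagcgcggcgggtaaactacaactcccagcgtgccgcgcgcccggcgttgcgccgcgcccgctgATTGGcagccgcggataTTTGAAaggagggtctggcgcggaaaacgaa
MKI67: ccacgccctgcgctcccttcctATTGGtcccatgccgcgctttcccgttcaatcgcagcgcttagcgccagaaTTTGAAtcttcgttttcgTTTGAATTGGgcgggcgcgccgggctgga
CDC25A: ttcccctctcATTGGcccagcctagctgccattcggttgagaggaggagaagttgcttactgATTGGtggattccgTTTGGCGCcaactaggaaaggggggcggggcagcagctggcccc
The ESPL1 stretch is chr12:53268179-53268298 on the plus strand, and the other two are on the minus strand, MKI67 at chr10:128126424-128126543 and CDC25A at chr3:48188418-48188537. ESPL1 has 1 CCAAT box followed by 1 CHR. MKI67 has 2 of each, the last pair overlapping by a base. CDC25A has 2 CCAAT boxes and an E2F match (TTTGGCGC) and no CHR match in its window. A match is a string of letters and not a measured binding site.

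Among the transcription factors, MYBL2 rose and FOXM1 fell. MYBL2 (chr20:43667019-43716495, plus strand, GRCh38), the B-MYB factor that joins MuvB, was at 42.4, 45.5 and 44.9 FPKM in siNC and 81.9, 83.3 and 75.8 FPKM in siUSP43. The groups were far apart, and the log2 fold change was 0.84 (SE 0.05, edgeR adjusted p = 1.39e-07). FOXM1, the forkhead factor of mitotic genes, was at 25.1, 25.4 and 26.0 FPKM in siNC and 23.4, 23.8 and 22.4 FPKM in siUSP43. Every siUSP43 value was lower, by a small step of -0.15 on the log2 scale (SE 0.05, edgeR adjusted p = 0.0136). FOXM1 overlaps ITFG2 and RHNO1, and its call was lost without siNC 3 (edgeR adjusted p = 0.0608) and with the size and GC trend removed (log2 fold change -0.08, adjusted p = 0.0701). LIN9, a core subunit of MuvB, rose from 4.61 ± 0.36 to 5.46 ± 0.52 FPKM (SD, n = 3), with a log2 fold change of 0.23 (edgeR adjusted p = 0.0316). That call was lost without siNC 2, siNC 3, siUSP43 1 or siUSP43 3 in turn, at edgeR adjusted p-values of 0.0656, 0.127, 0.0821 and 0.0875, and with the trend removed (log2 fold change 0.15, adjusted p = 0.0574).

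Cyclins and mitotic kinases divided into 4 that rose and 6 that did not pass, with a median log2 fold change of 0.10. The share that rose, 4 of 10, was near the 28.0% of all tested genes. CCNB2 (chr15:59105126-59125045, plus strand), a B-type cyclin, was at 21.9, 21.8 and 22.0 FPKM in siNC and 32.6, 33.8 and 32.6 FPKM in siUSP43. The libraries of each group nearly coincided, and CCNB2 rose by 0.58 on the log2 scale (SE 0.05, edgeR adjusted p = 1.27e-06). CCNB1, the main mitotic cyclin, was at 93.9, 96.7 and 97.2 FPKM in siNC and 93.4, 93.9 and 91.0 FPKM in siUSP43. The siUSP43 values were just under the siNC values, at 0.956 of them with an approximate 95% interval (1.96 SE) of 0.903 to 1.01. Here and below, these intervals use the normal quantile and are narrower than the edgeR test itself implies. CCNB1 did not pass (edgeR adjusted p = 0.203). With the trend removed, the log2 fold change of CCNB1 was -0.11 and passed (edgeR adjusted p = 0.0139). CCNA2, the cyclin of S phase and early mitosis, was at 35.9, 36.5 and 36.6 FPKM in siNC and 47.6, 48.6 and 51.6 FPKM in siUSP43. Its groups did not overlap, and it rose by 0.42 (SE 0.05, edgeR adjusted p = 1.51e-05).

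CDK1 itself, the mitotic kinase, was at 69.5, 70.6 and 68.4 FPKM in siNC and 74.8, 73.7 and 73.9 FPKM in siUSP43. The groups did not overlap, but the fold of 1.05 (95% interval 1.00 to 1.11) did not pass (edgeR adjusted p = 0.116), and limma on log2(FPKM + 1) passed it (adjusted p = 0.0467). PLK1, the Polo-like kinase of mitotic entry, was at 34.2, 34.7 and 35.1 FPKM in siNC and 36.3, 34.9 and 33.0 FPKM in siUSP43. Those groups overlapped, with a fold of 0.991 (95% interval 0.929 to 1.06). AURKA, the spindle pole kinase, was likewise at 68.9 ± 0.25 and 70.7 ± 1.75 FPKM (SD, n = 3), a fold of 1.01 (95% interval 0.958 to 1.07). Its activating partner BORA was at 7.38 ± 0.88 and 7.89 ± 0.30 FPKM, and PLK4, the kinase of centriole duplication, at 6.26 ± 0.76 and 6.87 ± 0.54 FPKM. Both groups overlapped in both genes, with edgeR adjusted p-values of 0.431 and 0.275.

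NEK2, a centrosome separation kinase, rose from 17.5 ± 0.79 to 23.0 ± 1.18 FPKM (SD, n = 3), by 0.38 on the log2 scale (SE 0.06, edgeR adjusted p = 1.63e-04). MASTL, the Greatwall kinase that restrains the phosphatase PP2A-B55, rose from 8.02 ± 0.59 to 9.50 ± 0.82 FPKM, by 0.23 (edgeR adjusted p = 0.0223). Its lowest siUSP43 value, 8.77 FPKM, was next to its highest siNC value, 8.62 FPKM. The MASTL call was lost without siNC 1, siNC 3, siUSP43 1 or siUSP43 3 in turn, at edgeR adjusted p-values of 0.0611, 0.0907, 0.0513 and 0.0531.

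All 5 regulators of the inhibitory phosphates on CDK1 rose (background 28.0%), the phosphatases and the opposing kinases alike, with a median log2 fold change of 0.32. CDC25A (chr3:48157146-48188417, minus strand), the phosphatase that also acts at S phase entry, was at 7.62, 7.29 and 7.52 FPKM in siNC and 13.3, 13.1 and 13.7 FPKM in siUSP43. WEE1 (chr11:9573670-9593457, plus strand), the nuclear inhibitory kinase, was at 6.09, 5.68 and 5.56 FPKM in siNC and 10.5, 10.1 and 10.7 FPKM in siUSP43. In both genes the groups were well separated. CDC25A rose by 0.82 on the log2 scale (SE 0.06, edgeR adjusted p = 3.15e-07) and WEE1 by 0.83 (SE 0.05, edgeR adjusted p = 1.49e-07). CDC25C, a phosphatase of mitotic entry, was at 5.52, 5.31 and 5.73 FPKM in siNC and 7.48, 7.06 and 6.35 FPKM in siUSP43, up by 0.32 (SE 0.08, edgeR adjusted p = 0.00374). CDC25B, the family member that starts CDK1 activation at centrosomes, was at 41.8, 40.9 and 42.1 FPKM in siNC and 50.1, 51.0 and 46.0 FPKM in siUSP43. In both of these siUSP43 3 was the lowest of its group and still above every siNC library, and CDC25B rose by 0.22 (SE 0.05, edgeR adjusted p = 0.00265). PKMYT1, the membrane-bound inhibitory kinase, rose from 5.98 ± 0.12 to 7.20 ± 0.64 FPKM (SD, n = 3), by 0.25 (edgeR adjusted p = 0.0111). PKMYT1 overlaps KREMEN2 and PAQR4, and its call was lost without siUSP43 1 (edgeR adjusted p = 0.0649). With the size and GC trend removed, the log2 rises of PKMYT1 and CDC25B were larger, 0.43 and 0.35.

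**Figure D3:**
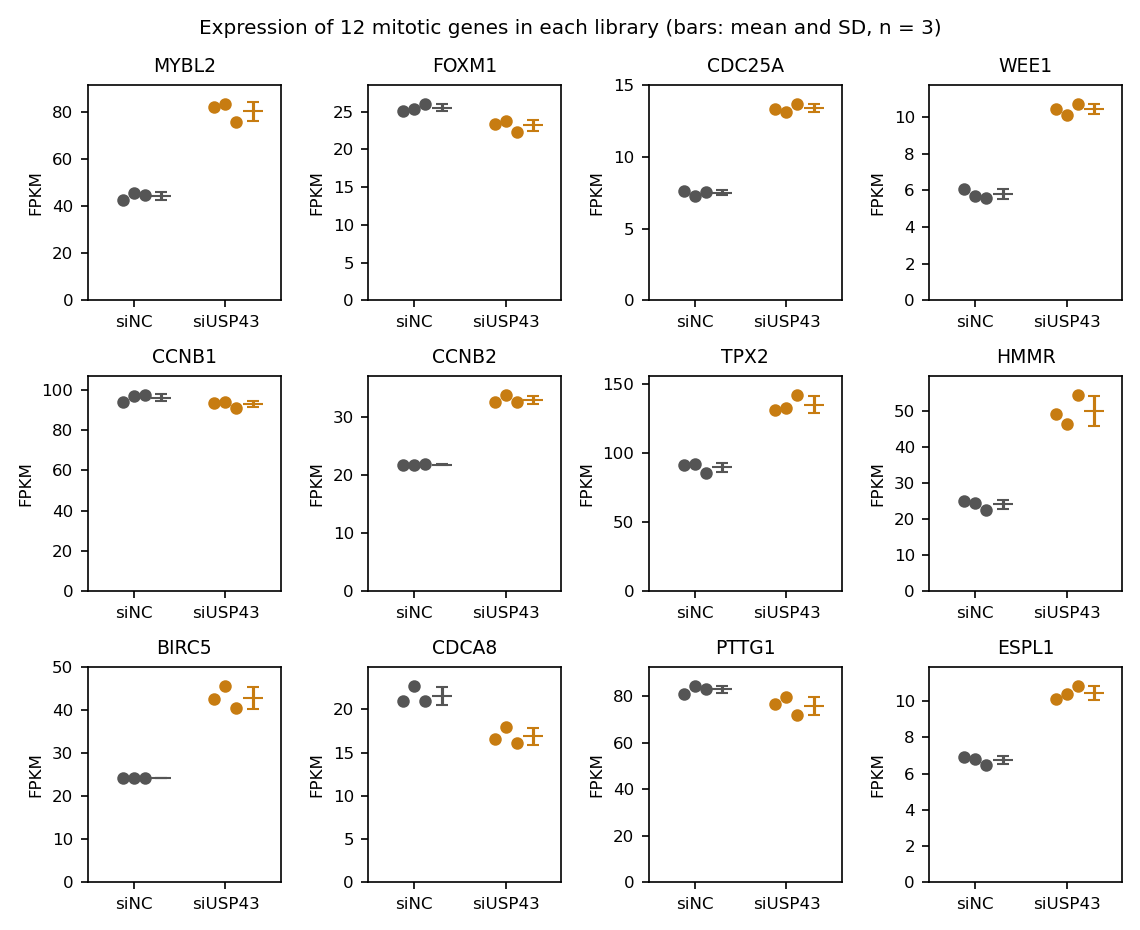
FPKM in each library for 12 of the mitotic genes (grey siNC, orange siUSP43; each axis starts at 0; bars give mean and SD, n = 3). MYBL2, CDC25A, WEE1, HMMR and BIRC5 separate widely, CCNB2 separates while CCNB1 lies between 91.0 and 97.2 FPKM, and CDCA8 and PTTG1 lie lower in siUSP43.

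The 4 subunits of the chromosomal passenger complex, which corrects chromosome attachment and guides cytokinesis, did not move together. BIRC5 (survivin; chr17:78214186-78225636, plus strand), which brings the complex to centromeres, was at 24.3, 24.3 and 24.4 FPKM in siNC and 42.6, 45.6 and 40.5 FPKM in siUSP43. The siNC libraries were almost identical and all siUSP43 libraries were above 40 FPKM, a rise of 0.80 on the log2 scale (SE 0.05, edgeR adjusted p = 2.22e-07). CDCA8 (borealin), its partner at the centromere, was at 21.0, 22.7 and 20.9 FPKM in siNC and 16.6, 18.0 and 16.1 FPKM in siUSP43. Here all siUSP43 libraries were lower, and CDCA8 fell by 0.37 on the log2 scale (SE 0.06, edgeR adjusted p = 4.10e-04). INCENP, the scaffold, rose from 10.9 ± 0.90 to 14.5 ± 1.24 FPKM (SD, n = 3), by 0.39 (edgeR adjusted p = 7.80e-04). AURKB, the kinase subunit, was at 29.4, 30.1 and 31.5 FPKM in siNC and 33.7, 35.2 and 31.2 FPKM in siUSP43. Its groups overlapped through siUSP43 3 and it did not pass (log2 fold change 0.12, edgeR adjusted p = 0.106). Without siUSP43 3 its log2 fold change was 0.16 and passed (0.0117), as it did with the size and GC trend removed (0.21, edgeR adjusted p = 2.22e-04).

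Spindle and microtubule genes were the most uniform of the larger groups: 9 of 10 rose (background 28.0%), 0 fell, and the median log2 fold change was 0.30. HMMR (chr5:163460203-163491941, plus strand), a receptor for hyaluronan that also acts at spindle poles, was at 25.1, 24.6 and 22.7 FPKM in siNC and 49.2, 46.4 and 54.4 FPKM in siUSP43. Of the 46 genes it changed most, by 2.05-fold (95% interval 1.88 to 2.23, edgeR adjusted p = 1.19e-07). TPX2, the activator and targeting factor of Aurora A, was at 91.0, 91.8 and 85.7 FPKM in siNC and 130.8, 132.2 and 141.7 FPKM in siUSP43. TPX2 thus went from below UBE2C, CCNB1 and CDC20 in siNC to the highest level of the 46 genes in siUSP43, up by 0.58 on the log2 scale (SE 0.05, edgeR adjusted p = 1.19e-06), beside AURKA at a fold of 1.01.

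TACC3 and CKAP5 (ch-TOG), which bind each other on spindle microtubules, both rose. TACC3 went from 15.4 ± 0.43 to 23.0 ± 1.39 FPKM (SD, n = 3), by 0.56 (SE 0.05, edgeR adjusted p = 4.01e-06), and overlaps TMEM129. CKAP5 went from 27.0 ± 0.75 to 32.7 ± 1.73 FPKM, by 0.26 (edgeR adjusted p = 6.88e-04). The log2 rises of the others were 0.47 for ASPM, the spindle pole protein of primary microcephaly, 0.33 for DLGAP5 (HURP), which stabilises kinetochore fibres, and 0.27 for CKAP2L, a mitotic spindle protein. Their edgeR adjusted p-values were 3.89e-04, 3.88e-04 and 8.11e-04, and in each the groups did not overlap. GTSE1, a microtubule-binding protein of G2 and mitosis, rose by 0.16 (edgeR adjusted p = 0.0380), a call lost without siNC 3 (log2 fold change 0.10, adjusted p = 0.174) and without siUSP43 1 (0.15, adjusted p = 0.107). CKAP2, a microtubule stabiliser, was at 31.9, 30.9 and 28.2 FPKM in siNC and 34.3, 31.2 and 39.8 FPKM in siUSP43. Its groups overlapped, its edgeR adjusted p was 0.0496 at a log2 fold change of 0.19, and it missed the threshold in 10 of 15 alternatives. The CKAP2 adjusted p was 0.0575, 0.0963 and 0.165 without siNC 1, 2 or 3, 0.0878 without siUSP43 1 and 0.136 without siUSP43 3. The log2 fold change of CKAP2 was itself smaller, 0.10, without siUSP43 3 and with the size and GC trend removed. NUSAP1, a spindle-bundling protein, had only 101 counts in its lowest library, the fewest of any of these genes. It was at 0.98, 1.15 and 1.29 FPKM in siNC and 1.38, 1.62 and 1.09 FPKM in siUSP43, and its fold of 1.18 had a 95% interval of 0.940 to 1.48.

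All 4 midzone and cytokinesis genes rose (background 28.0%), within a narrow span of 0.45 to 0.59 on the log2 scale. ANLN (anillin), which ties the contractile ring to the membrane, was at 47.7, 46.8 and 44.7 FPKM in siNC and 69.3, 66.6 and 76.7 FPKM in siUSP43. ECT2, the exchange factor that activates RhoA at the cleavage site, was at 36.3, 35.6 and 31.1 FPKM in siNC and 47.2, 44.4 and 53.8 FPKM in siUSP43. RACGAP1, the centralspindlin subunit that recruits ECT2, was at 34.8, 34.6 and 33.5 FPKM in siNC and 47.6, 46.6 and 49.8 FPKM in siUSP43. In all 3 genes siNC 3 was the lowest library and siUSP43 3 the highest, the pair at opposite ends of the size and GC trend. The groups did not overlap in any of them, and the log2 fold changes of ANLN, ECT2 and RACGAP1 were 0.59, 0.48 and 0.47 (edgeR adjusted p = 2.93e-06, 1.52e-04 and 3.72e-06). PRC1, which bundles the midzone microtubules, was at 6.77, 6.77 and 7.34 FPKM in siNC and 9.61, 10.1 and 9.16 FPKM in siUSP43. Here siUSP43 3 was the lowest of its group, and PRC1 rose by 0.45 (SE 0.06, edgeR adjusted p = 8.95e-05).

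The genes of ubiquitin-dependent exit and anaphase held 4 of the 7 falls: of 8 genes 4 fell and 1 rose, against 28.1% and 28.0% of all tested genes, and the median log2 fold change was -0.10. FZR1 (CDH1; chr19:3506311-3538334, plus strand), the APC/C activator of late mitosis and G1, was at 7.08, 7.43 and 7.27 FPKM in siNC and 5.85, 5.31 and 4.65 FPKM in siUSP43. All siUSP43 libraries were below 6 FPKM, and FZR1 fell by 0.48 on the log2 scale (SE 0.08, edgeR adjusted p = 2.82e-04), the largest fall of the 46; it overlaps MFSD12. UBE2S, the conjugating enzyme that extends ubiquitin chains on APC/C substrates, was at 39.0, 40.9 and 43.2 FPKM in siNC and 32.7, 35.1 and 28.7 FPKM in siUSP43. It fell by 0.37 (SE 0.07, edgeR adjusted p = 9.98e-04), with no overlap between groups, and it overlaps the ribosomal protein gene RPL28. UBE2C, which starts those chains, was at 100.6, 98.6 and 101.9 FPKM in siNC and 97.4, 102.6 and 91.5 FPKM in siUSP43. Its groups overlapped, with a fold of 0.957 (95% interval 0.892 to 1.03).

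CDC20, the APC/C activator of anaphase, was at 89.1, 96.7 and 96.4 FPKM in siNC and 89.0, 88.9 and 81.2 FPKM in siUSP43. Its fall of -0.14 on the log2 scale was small (SE 0.05, edgeR adjusted p = 0.0423) and missed the threshold in 10 of 15 alternatives. Those included leaving out siNC 2, siNC 3, siUSP43 1 or siUSP43 3, at adjusted p-values of 0.152, 0.140, 0.0647 and 0.0800, and removing the size and GC trend, where the log2 fold change of CDC20 was -0.02 (edgeR adjusted p = 0.739). PTTG1 (securin), the inhibitor that holds separase until anaphase, was at 81.1, 84.3 and 83.2 FPKM in siNC and 76.4, 79.4 and 71.7 FPKM in siUSP43. It fell by 0.14 (SE 0.05, edgeR adjusted p = 0.0262), a call lost without siNC 2, siNC 3 or siUSP43 1 (0.101, 0.0768 and 0.0695). ESPL1 (separase; chr12:53268299-53293638, plus strand), the protease that cuts cohesin, was at 6.93, 6.83 and 6.48 FPKM in siNC and 10.1, 10.4 and 10.8 FPKM in siUSP43. ESPL1 rose by 0.61 (SE 0.05, edgeR adjusted p = 1.38e-06), so that securin and separase differed in direction. FBXO5 (EMI1), an inhibitor of the APC/C, was at 12.7 ± 0.62 and 12.5 ± 1.34 FPKM (SD, n = 3), and CCNF, the cyclin-like subunit of an SCF ubiquitin ligase, at 7.69 ± 0.25 and 7.83 ± 0.35 FPKM. Neither passed (edgeR adjusted p = 0.698 and 0.898), and with the trend removed FBXO5 passed as lower (log2 fold change -0.13, edgeR adjusted p = 0.0463).

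The 2 chromosome-associated proliferation genes differed in sign. MKI67, the Ki-67 proliferation antigen that coats mitotic chromosomes, was at 17.6, 17.4 and 17.7 FPKM in siNC and 23.5, 24.8 and 26.9 FPKM in siUSP43. The groups were far apart, and MKI67 rose by 0.50 (SE 0.05, edgeR adjusted p = 9.56e-06). TOP2A, the DNA-untangling topoisomerase, was at 64.5, 64.1 and 62.0 FPKM in siNC and 56.9, 54.6 and 63.4 FPKM in siUSP43. One siUSP43 library, the third, was within the siNC range, and the fall of -0.14 (edgeR adjusted p = 0.0432) was lost in 10 of 15 alternatives. The TOP2A adjusted p was between 0.0652 and 0.152 without siNC 1, siNC 2, siNC 3, siUSP43 1 or siUSP43 2. With the size and GC trend removed its log2 fold change was -0.23 (edgeR adjusted p = 4.63e-05).

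Ratios within a library do not depend on the scaling between libraries, and 8 pairs of partners or opponents were compared that way. CCNB1 over CCNB2 was 4.39 in siNC and 2.81 in siUSP43, as log2 ratios 2.13 ± 0.03 and 1.49 ± 0.02 (SD, n = 3). PTTG1 over ESPL1, inhibitor to protease, was 12.3 in siNC and 7.26 in siUSP43. CDC25C over WEE1, phosphatase to kinase, was 0.956 and 0.667. All 3 ratios were lower in every siUSP43 library than in any siNC library. CDC20 over FZR1, early to late APC/C activator, was 12.9 and 16.4, UBE2C over UBE2S 2.45 and 3.03, and BIRC5 over INCENP 2.23 and 2.95. Those were higher in every siUSP43 library. FOXM1 over LIN9 was lower, at 5.55 and 4.26, and AURKA over BORA overlapped, at 9.38 and 8.97. Each of the 7 pairs without overlap had p = 0.1 in an exact two-sided permutation test, the smallest that 3 against 3 libraries allow, and 0.1143 after adjustment over the 8 pairs. AURKA over BORA had an exact p = 0.6.

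**Figure D4:**
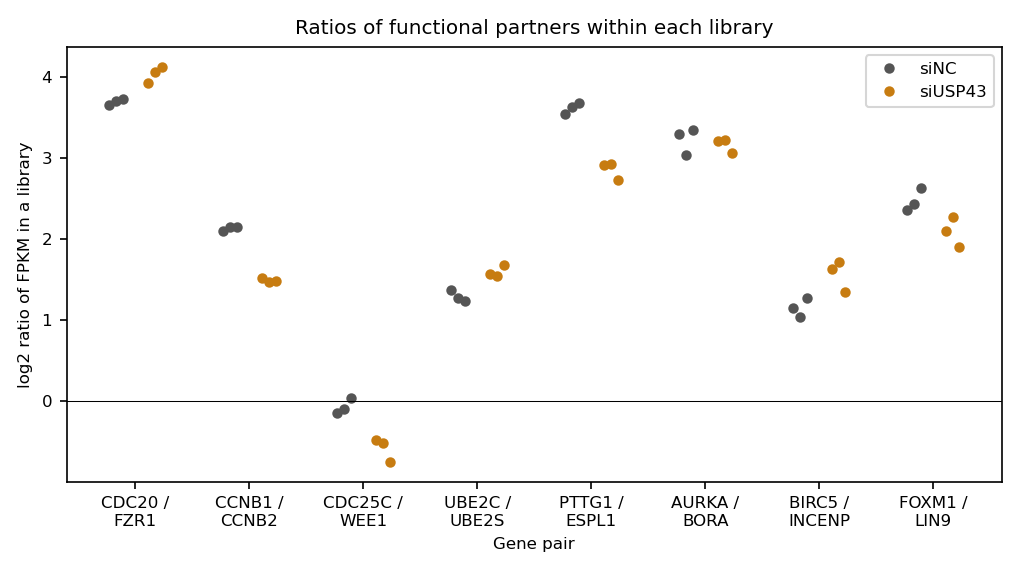
Log2 ratio of FPKM within each library for 8 gene pairs (grey siNC, orange siUSP43; each point is a library). CCNB1 over CCNB2 separates with the least scatter, from 2.13 to 1.49, and AURKA over BORA is the pair whose groups overlap.

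Of 87 other mitosis genes in 8 lists, 85 were tested, and 40 rose (47.1%), 14 fell (16.5%) and 31 did not pass, with a median log2 fold change of 0.13. Over all tested genes, 28.0% rose and 28.1% fell. Cohesin and its regulators had 8 of 11 rise and 0 fall, and condensin had 6 of 8 rise and 1 fall. SMC1A, a cohesin ring subunit, rose by 0.50 on the log2 scale. NCAPD2 of condensin I rose by 0.55, from 43.8 ± 1.01 to 64.8 ± 1.53 FPKM (SD, n = 3), while NCAPD3 of condensin II fell by 0.31. Also of condensin II, NCAPH2 rose by 0.22 (edgeR adjusted p = 0.0253) and NCAPG2 did not pass (log2 fold change -0.03). NCAPD2 overlaps the tested gene MRPL51, and NCAPD3 overlaps VPS26B. Of 14 APC/C core genes, 5 rose (35.7%) and 5 fell (35.7%), shares near those of all tested genes. ANAPC2, the cullin subunit, fell from 8.24 ± 0.43 to 5.59 ± 0.28 FPKM (log2 fold change -0.58, edgeR adjusted p = 1.87e-05), and ANAPC15, which helps release the checkpoint complex, rose by 0.60.

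The remaining lists are small, and their counts stand against the same 28.0% that rose and 28.1% that fell over all tested genes. Around PP2A-B55, 4 of 8 genes rose and 1 fell. ENSA, a Greatwall substrate that inhibits this phosphatase, rose from 17.3 ± 0.24 to 28.5 ± 1.34 FPKM (SD, n = 3). Its log2 fold change was 0.70 (edgeR adjusted p = 4.01e-07), beside MASTL, the Greatwall kinase, at 0.23. ARPP19, the other Greatwall substrate listed, was at 24.6 ± 1.27 and 25.4 ± 1.36 FPKM and did not pass (log2 fold change 0.03, edgeR adjusted p = 0.644). PPP2R1A, a scaffold subunit, fell by 0.27, while PPP2R1B, the other scaffold subunit listed, rose by 0.51 (edgeR adjusted p = 3.99e-06). PPP2R1B overlaps the tested gene SIK2. Of the other MuvB and MYB subunits, 2 of 4 tested rose and 0 fell; MYBL1 (A-MYB) rose by 0.62, beside MYBL2 at 0.84. Among CDK subunits and the CDK-activating kinase, 1 of 5 rose (MNAT1, its assembly factor, by 0.27) and 1 fell (CKS1B, by 0.19). Of 23 tested centrosome, gamma-tubulin and augmin genes, 9 rose (39.1%) and 5 fell (21.7%), not far from the shares of all tested genes. HAUS5, an augmin subunit, had the largest fall at -0.86. CEP135, a centriole protein, had the largest rise at 0.74, from 0.84 ± 0.10 to 1.42 ± 0.18 FPKM (SD, n = 3). Since CEP135 averaged below 1 FPKM in siNC, it was tested only because of its siUSP43 level, and its call depends on that filter. Of 12 cytokinesis and abscission partners, 5 rose and 1 fell, CEP55, a midbody protein, going from 87.0 ± 1.30 to 114.9 ± 3.89 FPKM and CHMP2A, an ESCRT-III subunit, falling by 0.32.

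**Figure D5:**
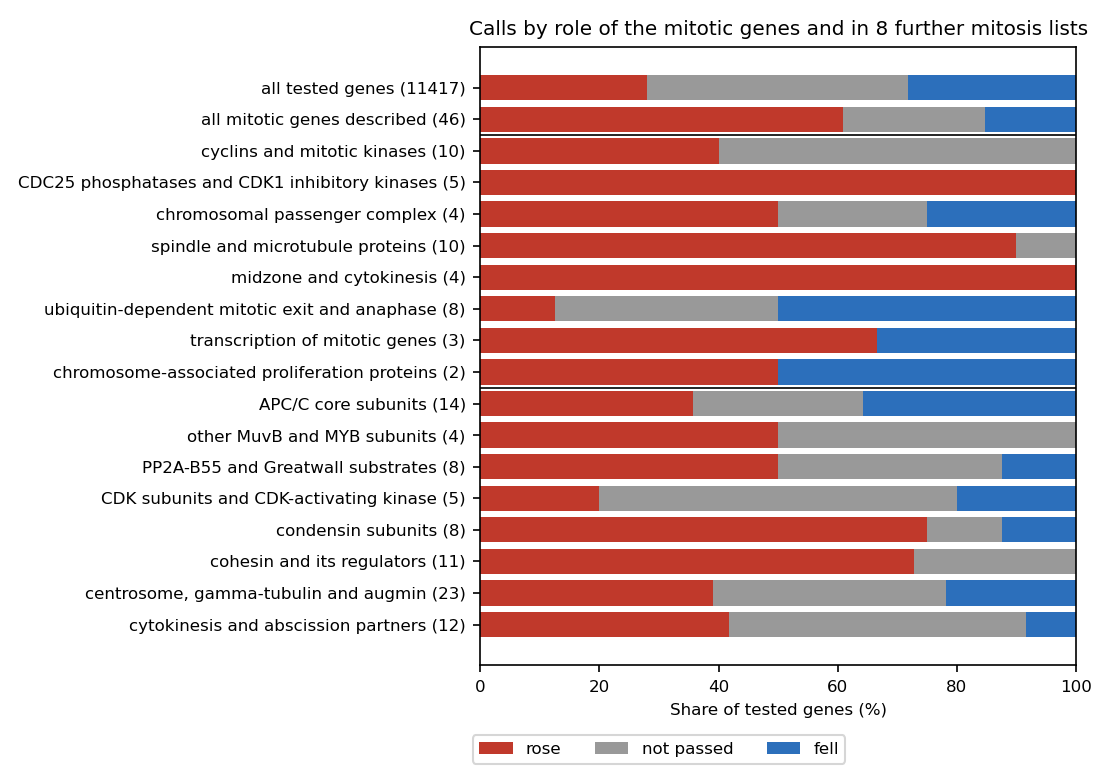
Share of tested genes that rose, did not pass or fell (%; edgeR adjusted p under 0.05), for all tested genes, the 46 mitotic genes, their 8 roles and 8 further mitosis lists; the number tested is in parentheses. Spindle (9 of 10 rose), condensin (6 of 8) and cohesin (8 of 11) bars are mostly red, and the ubiquitin-dependent exit bar is blue for 4 of its 8 genes.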

How the data were processed

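Expression was measured by RNA-seq in 3 siNC and 3 siUSP43 libraries of T24. Raw counts and FPKM of each gene in each library were deposited together, per the file headers. TRIzol RNA went into VAHTS Universal V8 libraries, per the labels' protocols. The submitters' processing notes name cutadapt 2.6, HISAT2 2.2.1 and the build GRCh38. For the counter, annotation release and strand setting the entry is: not given in the sources used here.

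From the deposited counts, edgeR 4.0.16 (R 4.3.3) fitted a quasi-likelihood model on the 11417 genes whose FPKM averaged 1 or more over the 6 libraries. TMM factors were applied to the totals of all genes, group was the only term, and p-values were two-sided with Benjamini-Hochberg adjustment over all tested genes. The SE is the absolute log2 fold change over the square root of F. The median tested gene and library had 895 counts, and library pairs within a group had a chi-square per degree of freedom of 2.28 to 14.9 over genes, where counting error alone gives about 1. FPKM, as deposited by the authors, gave levels and within-library ratios. The scripts were tested on simulated data. Alternatives used DESeq2 1.42.0, limma 3.58.1, other scalings and filters, a replicate block and each library left out. The removal of the size and GC trend was chosen after seeing the data. RefSeq promoter windows of GRCh38.p14 were matched by symbol.

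All mitotic genes listed were described by role, and of each further list the gene with the largest rise and the one with the largest fall were named. ARPP19, PPP2R1B, NCAPH2 and NCAPG2 were named beside them as partners. The genes, lists and pairs were chosen with earlier results of these data known.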

Additional observations from a re-analysis of the deposited data

How the results depend on the processing

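Over 15 alternatives, the number of mitotic genes that rose ran from 23 to 28 and their median log2 fold change from 0.22 to 0.28; leaving out each library in turn gave 23 to 28 genes and medians of 0.24 to 0.28. The number that fell was less stable: 7 as reported, 3 to 6 with each library left out, and 3 with a replicate block, under which 25 rose. Fits with a library left out or with a replicate block have fewer degrees of freedom, and the part of that in these counts was not tested. Labels number both groups 1 to 3. Deviations from the group means correlated at -0.05, -0.19 and -0.39 between same-numbered libraries and at -0.26 to 0.40 between the others. Such deviations sum to 0 within each group of 3, and siNC 3 and siUSP43 3 lie at opposite ends of the size and GC trend. These correlations therefore cannot show whether the numbers are a pairing. The numbers were not taken as one, and a replicate block was run as an alternative. The replicate block ended the calls of CKAP2, GTSE1, LIN9, CDC20, PTTG1, FOXM1 and TOP2A. Calls held in all 15 alternatives for 23 of 28 genes that rose, 3 of 7 that fell and 7 of 11 that did not pass, and no called gene changed sign. Signs changed only in genes that did not pass. With the size and GC trend removed the log2 fold change of CDK1 was -0.0146, of PLK1 0.0824 and of AURKA -0.0003. PLK1 was 0.0027 in both limma fits, 0.0011 without siNC 3 and 0.0230 without siUSP43 3, and ran from -0.0429 to 0.0230 over the libraries left out. FBXO5 was 0.0465 without siUSP43 2 (range -0.0838 to 0.0465), and CCNF was -0.0097 without siNC 3, -0.0118 without siUSP43 2 and -0.0073 without siUSP43 3 (range -0.0118 to 0.0495); the cause was not tested. The paired ratios kept their direction with CPM in place of FPKM and with each library left out. Gene length is the same in every library, so CPM had to give nearly the same difference. Where the groups did not overlap, leaving out a library could not reverse the direction. The ratio of AURKA over BORA could have turned, and its log2 difference ran from -0.159 to -0.0049 over the libraries left out. The size and GC trend was not removed from the ratios. NUSAP1 had the fewest counts, 101 in its lowest library, and the widest SE of the mitotic genes, 0.17; the part of depth in that was not tested.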
